A study of Mus musculus with 2 samples.

Results

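The genes described here were bright in mouse embryonic stem cells (mESCs) cultured in LIF and at least 1.5-fold dimmer when the GSK3 inhibitor CHIR99021 (CHIR) was added to LIF. A member had a signal intensity of at least 500 and a detection p-value under 0.01 in LIF, and a LIF signal at least 1.5 times the signal in LIF plus CHIR. Signals in LIF plus CHIR under 47.1 were to be raised to that value, the lowest detected signal of a row measured by 1 probe, but 0 members needed it. Of the 30774 rows of the array table, 4435 met the LIF limits, and 68 of these met the fold limit. The rule leaves out Otx2, Pou3f1, Gadd45g, Fgf4 and Klf7 by name, 4 of which passed, so that 64 members remained. The signals of these 2 arrays chose the members, so that the direction and the minimum size of every difference below come from the choice and are given as a description.

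RNA of B6 mESCs, labelled as derived from the inner cell mass of the blastocyst, was hybridized to Illumina mouse beadchips after 12 h in LIF or in LIF plus CHIR99021. Both groups received LIF, and the labels name no genetic change in either. Each condition had 1 array, labelled replicate 1, so that replicate error is unknown and none of the differences could be tested. The bulk RNA cannot tell fewer cells of a type from less RNA per cell.

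LIF is a cytokine that activates Stat3 and keeps mESCs from differentiating. CHIR blocks GSK3, which otherwise marks β-catenin for destruction, so that β-catenin accumulates and acts with Tcf/Lef factors in the nucleus. Cultures in serum and LIF are known to hold cells of several states, some of which express genes of the later epiblast or of other fates at low level.

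The LIF array detected 9021 rows and the LIF plus CHIR array 9174. Of 8 stem cell markers, 6 were detected on both arrays, whereas Sox2 (441 and 400.2) and Tdgf1 (26.6 and 14.6) were detected on neither. Of the markers of other cells, 0 of 7 fibroblast and 0 of 6 neural genes were detected on either array, and 1 of 6 primitive endoderm genes, Sox7, was detected on both. Of 5 mesoderm markers, 0 were detected in LIF and 1, T (Brachyury), with CHIR at a signal of 394. The summed signal of the mesoderm list was 13.7 in LIF and 433 with CHIR, of which T gave 394. The fibroblast and neural sums, all of undetected rows, were 212 and 206, and 56.7 and 72.2. The primitive endoderm sum, from Sox7 and undetected rows, was 112 and 93.7. The part of mesoderm-like cells in the differences was not tested.

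The sequences upstream of the members with the largest ratios are shown first, to set their letters beside the signals that follow. Of the 50 members with an Entrez gene number, 33 matched a promoter window of RefSeq (GRCm38.p6), and the 4 of these with the largest ratio of LIF to LIF plus CHIR are printed. All 4 ratios were smaller by over 1.5 times under one other background correction, with the values given beside the range of ratios. Each line holds the 250 bases before a gene start, 5′ to 3′, at chr13:112987552-112987801 for Ccno, chr15:103502784-103503033 for Pde1b (the first of its 3 windows), chr9:73102148-73102397 for Khdc3 and chr2:126552774-126553023 for Slc27a2, all on the + strand. Capitals mark a match, on either strand, to one of 7 motifs, which were the TCF/LEF motif CTTTGAT, the OTX motif GGATTA, the E-box CACGTG, the TATA box TATAAA, the CCAAT box CCAAT, the Sp/Klf motif GGGCGG and the AP-1 motif TGANTCA.
Ccno: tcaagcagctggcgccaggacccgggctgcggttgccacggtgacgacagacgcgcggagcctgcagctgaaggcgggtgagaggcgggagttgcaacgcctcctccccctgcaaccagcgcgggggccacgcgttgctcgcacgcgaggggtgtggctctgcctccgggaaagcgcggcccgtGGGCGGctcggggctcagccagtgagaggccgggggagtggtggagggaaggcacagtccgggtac
Pde1b: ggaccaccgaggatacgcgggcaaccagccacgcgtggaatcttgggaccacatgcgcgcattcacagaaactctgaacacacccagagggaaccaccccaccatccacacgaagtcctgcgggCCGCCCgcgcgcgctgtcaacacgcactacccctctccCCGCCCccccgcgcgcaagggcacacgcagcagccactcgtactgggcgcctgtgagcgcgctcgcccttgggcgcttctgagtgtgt
Khdc3: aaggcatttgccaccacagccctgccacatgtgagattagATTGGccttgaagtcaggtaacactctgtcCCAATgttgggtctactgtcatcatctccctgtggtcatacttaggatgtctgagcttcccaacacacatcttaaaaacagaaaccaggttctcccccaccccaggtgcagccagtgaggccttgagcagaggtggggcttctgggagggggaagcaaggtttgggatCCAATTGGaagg
Slc27a2: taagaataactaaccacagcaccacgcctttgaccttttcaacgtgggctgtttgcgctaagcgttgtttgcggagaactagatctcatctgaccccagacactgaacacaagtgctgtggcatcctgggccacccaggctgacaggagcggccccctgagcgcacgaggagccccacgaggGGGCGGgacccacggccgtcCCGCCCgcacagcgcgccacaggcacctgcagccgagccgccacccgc

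Among these 4 sequences, Ccno, Pde1b and Slc27a2 held GGGCGG or its reverse complement and no other motif of the 7. The matches began 66 bases before the start in Ccno, 126 and 88 bases before it in Pde1b, and 68 and 48 bases before it in Slc27a2. The Khdc3 sequence held only CCAAT boxes, 4 in all, of which the last pair overlapped in opposite orientation just before the start. It contained 0 CG dinucleotides in 250 bases, against 26 in Ccno, 26 in Pde1b and 19 in Slc27a2. Khdc3 thus differed in both motif and CG content from Ccno, Pde1b and Slc27a2, which shared the same motif.

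The windows of all 33 matched members, 45 in number and 300 bases long (250 before and 50 after the start), were then set beside those of all bright genes. Windows of 1 gene can overlap, and a match is only a description of the letters. The Sp/Klf motif was present in 66.7% of the members' windows, 66.8% of those of bright genes and 35.7% of all 32851 windows. The CCAAT box was present in 35.6%, 38.9% and 37.4%, in the same order. The median G+C content was 60% for members, 61% for bright genes and 52.7% for all windows, and the median ratio of observed to expected CpG was 0.69, 0.80 and 0.38. In these features the members lay close to other bright genes.

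Rarer motifs gave small counts. CTTTGAT, the core bound by Tcf/Lef factors, occurred in 0 of the 45 windows, against 2.57% of the windows of bright genes and 3.73% of all windows. The E-box CACGTG occurred in 1 window, which was 2.22%, against 11.9% and 7.15%. The OTX motif occurred in 4 windows (8.89%, against 5.98% and 7.06%), the TATA box in 4 (8.89%, against 6.92% and 13.6%) and the AP-1 motif in 2 (4.44%, against 4% and 7.81%).

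The 68 rows that were at least 1.5-fold lower made up 1.53% of the 4435 bright rows, and 47 rows, 1.06%, were at least 1.5-fold higher. With the rule mirrored, so that brightness was asked of the LIF plus CHIR array, 76 of 4441 rows were higher, which was 1.71%. The shares in the 2 directions were thus of similar size. Over all bright rows the median log2 ratio of LIF plus CHIR to LIF was -0.01, with the 5th percentile at -0.33 and the 95th at 0.28.

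**Figure D1:**
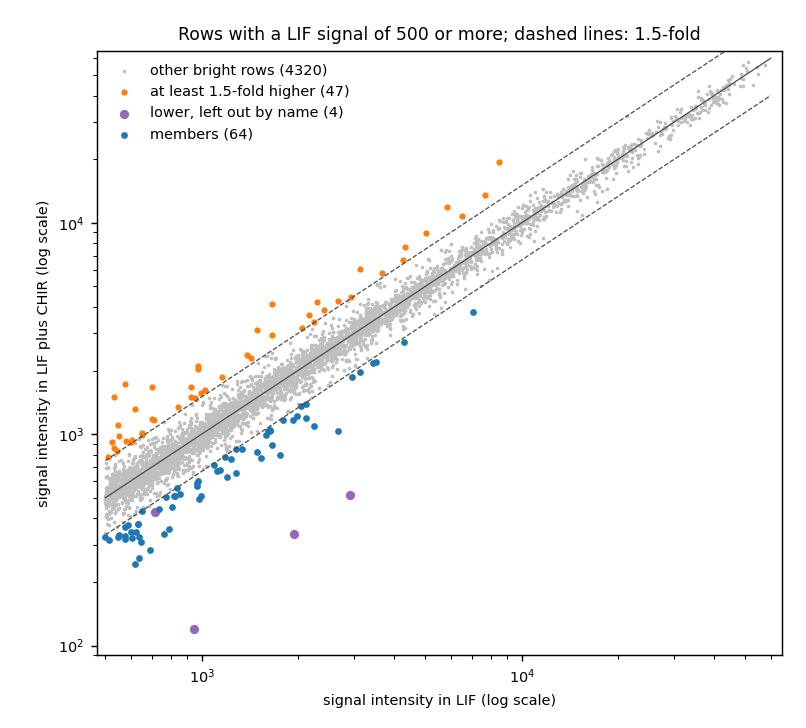
Signal intensity in LIF plus CHIR (vertical, log scale) against LIF (horizontal, log scale) for the 4435 rows with a LIF signal of 500 or more and a detection p-value under 0.01 in LIF. The 64 members (blue) lie just below the lower dashed line of 1.5-fold, the 4 passing genes left out by name (purple) include 3 far below it, and 47 rows (orange) lie above the upper line.

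Most members were near the limit. Their ratio of LIF to LIF plus CHIR ran from 1.503 to 2.60 with a median of 1.66, and 20 members were under 1.6, 35 between 1.6 and 2, and 9 at 2 or more. A normexp background correction fitted on all rows had a fitted background SD of 588 in LIF. After it, 40 members were no longer past both limits, although all 64 stayed below 0 in log2 ratio. Fitted on rows with 1 probe, with an SD of 15.4 in LIF, the correction kept 60 members past both limits. For 9 members the ratio changed by over 1.5 times under the correction fitted on all rows. In log2 it became -0.37 for Ccno, -0.41 for Pde1b, -0.44 for Khdc3 and -0.45 for Slc27a2, the genes whose sequences are shown. The other 5 were 4933421H10Rik (-0.37), Tnfsfm13 (-0.34), Foxp1 (-0.31), 9930031P18Rik (-0.28) and Bcl2l11 (-0.25). At 2-fold, 12 of all bright rows (0.271%) were lower, the other 3 being left-out genes. Otx2, a homeobox factor of the epiblast and forebrain, had signals of 947 and 119.7, Gadd45g, a stress-response gene, 1939 and 337, and Pou3f1, a POU factor of the epiblast, 2902 and 516. Each of these was further apart on the 2 arrays than any member. Fgf4, a growth factor that drives exit from self-renewal, had 713 and 430.1, and Klf7 missed the LIF limit with 430.3 and 272.

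The members remained well expressed. Their median signal was 989 without and 594 with CHIR, and 40 of the 64 were still at 500 or more with CHIR. All but 1 were detected with CHIR. The exception was Cemip2 (on the array as Tmem2), a hyaluronan-degrading surface enzyme, whose signal was 1277 in LIF and 656 with CHIR, with detection p-values of 0.00763 and 0.0400. In rank, members dropped by 1.83 to 6.92 percentile points, with a median change of -3.604 points.

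The share of rows past 1.5-fold differed with brightness. In the range from 500 to 1000, 35 of 1285 rows were lower, or 2.72%, and 24 were higher, or 1.87%. From 1000 to 2000 the shares were 1.90% lower and 0.632% higher, and from 2000 to 4000 they were 1.11% and 1.00%. From 4000 to 8000, 2 of 559 rows were lower, namely Urah and Cdkn1c, and 6, or 1.07%, were higher. At 8000 and above 0 of 585 were lower and 1, or 0.171%, was higher. Under 1000 in LIF were 33 of the 64 members and 1285 of all 4435 bright rows. These ranges were set by the LIF signal, which the rule also used.

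**Figure D2:**
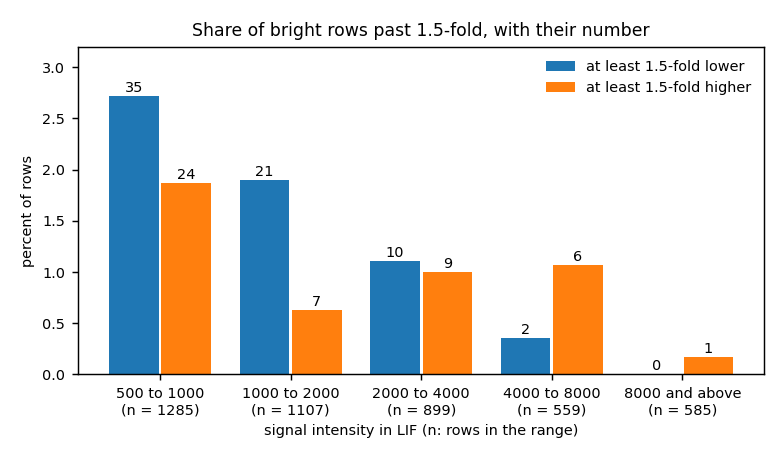
Percent of rows at least 1.5-fold lower (blue) or higher (orange) with CHIR, in 5 ranges of LIF signal, with the number of rows above each bar. The share of lower rows is 2.72% in the dimmest range and 0 in the brightest, with no error bars because each condition had 1 array.

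Members were grouped by the known role of their product, after their values were seen. The 3 imprinted genes, which are expressed from the copy of 1 parent, were bright and included the largest ratio. H19, a maternally expressed long noncoding RNA, had a signal of 2676 in LIF against 1031 with CHIR, 2.60-fold lower. Peg3, a paternally expressed zinc finger gene, had 2249 and 1089.8, 2.06-fold lower. Cdkn1c, the maternally expressed inhibitor of cyclin-dependent kinases p57, had 4298 and 2733, 1.57-fold lower. Of the 10 bright rows of an imprinted gene list, these 3 were past 1.5-fold lower and 0 past it higher, against 1.53% and 1.06% of all bright rows. In the list, 7 rows were below 0 in log2 ratio, including the 3 members, against 2316 of all 4435 bright rows. The list's median, members included, was -0.15 against -0.01 for all bright rows. The other 7, among them Igf2, Phlda2, Snurf, Ndn and Impact, were not past the limit.

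H19 and Cdkn1c lie in the imprinted region of chromosome 7 band F5, with 9 arrayed genes between them. The genes around them were not lower to the same extent. Igf2, the growth factor next to H19 and expressed from the paternal copy, had 1232 in LIF and 1149 with CHIR. Cd81, a tetraspanin between them, had 10966 and 11109, and Phlda2, an imprinted placental growth regulator beyond Cdkn1c, had 5233 and 5763. In this interval the members therefore stood among detected neighbors that differed by less than 1.5-fold. Peg3's own imprinted neighbors Usp29, Zim1 and Zim2 were not detected on either array.

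Transcription factors and chromatin proteins were 13 of the 64, with ratios from 1.503 to 1.95. Foxp1, a forkhead factor represented by a clone-derived row, had 635 and 326, 1.95-fold lower. Rhox9, an X-linked homeobox gene of the germline and placenta, had 2125 and 1195, 1.78-fold lower, and its relative Rhox6 had 835 and 556, 1.503-fold lower. Tcf15, a basic helix-loop-helix (bHLH) factor of the paraxial mesoderm that is also found in mESCs leaving the naive state, had 3499 and 2186, 1.601-fold lower. Hes6, a bHLH factor that opposes Hes1, had 574 and 330.2, 1.74-fold lower. Grhl2, a driver of epithelial genes, had 738 and 443, 1.67-fold lower. Sall1, a zinc finger factor of the kidney and of stem cells, was just inside the limit with 651 and 433.

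The remaining members of this group were the zinc finger gene Zbtb8a (2410081M15Rik), the chromatin remodeler Chd9, the autoimmune regulator Aire, the Ldb1-binding protein Ssbp3, the bHLH repressor Msc (musculin) and LOC547380, a predicted gene annotated as similar to castor homolog 1. They ran from 1.51-fold for LOC547380 to 1.78-fold for Zbtb8a. Because LOC547380 is named by similarity, its signal may include related transcripts. The row named Casz1, the castor homolog, had 374 and 287.

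**Figure D3:**
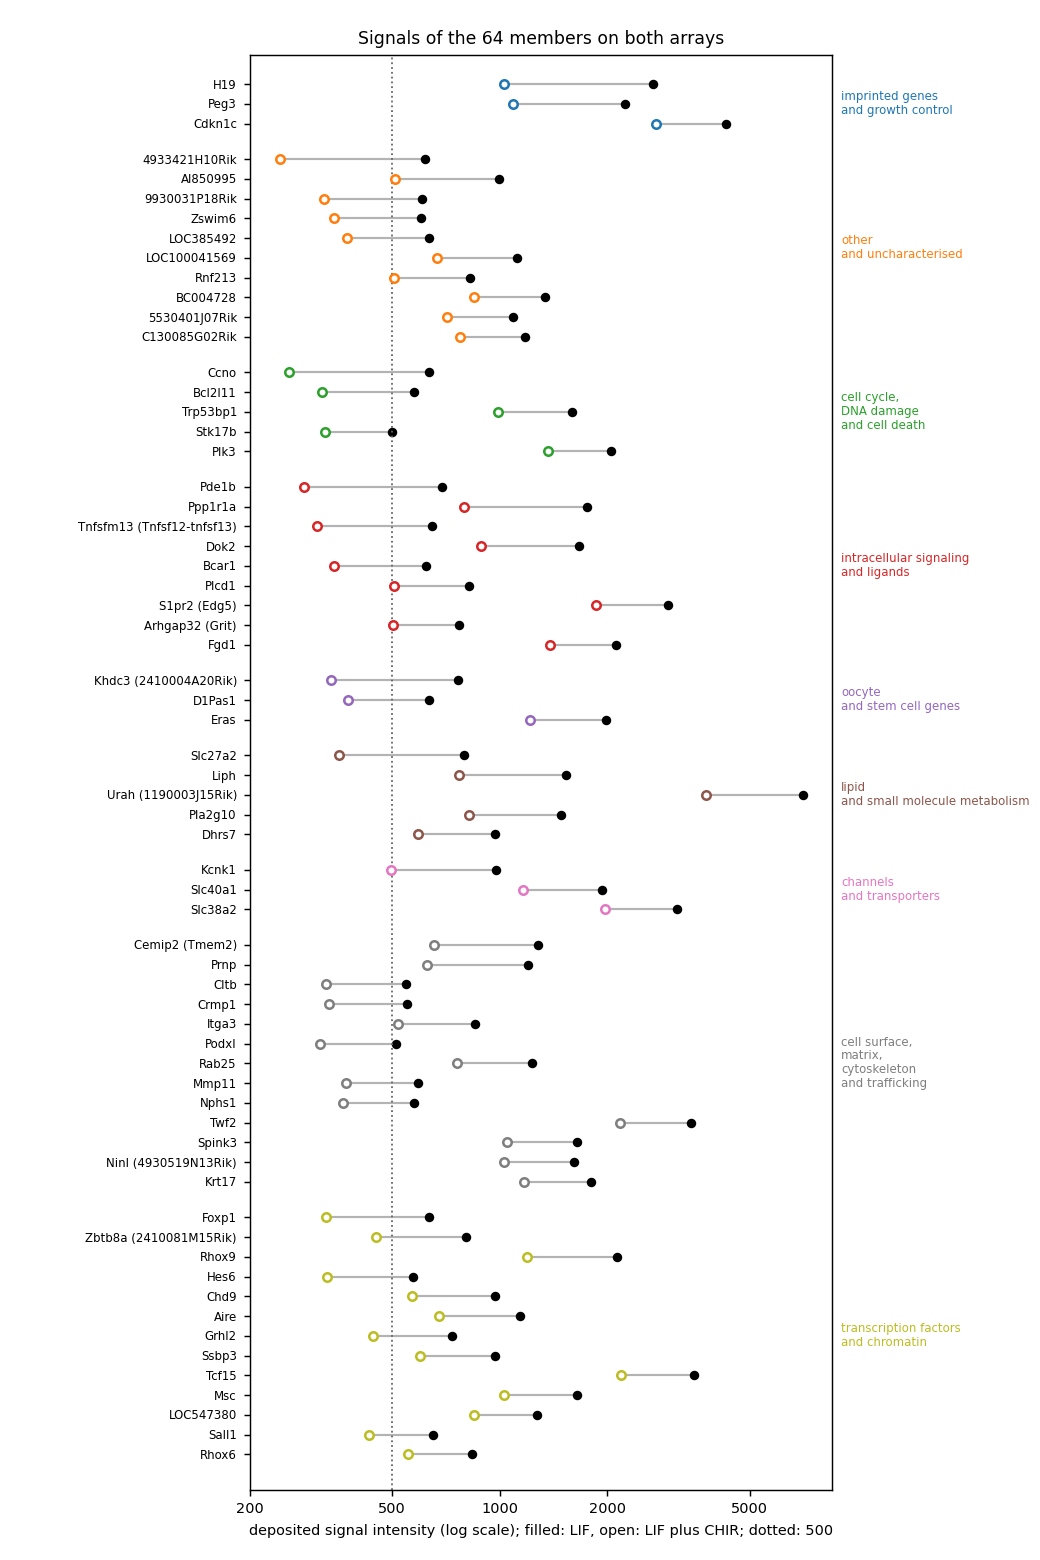
Signal intensity (log scale) of each of the 64 members in LIF (filled) and in LIF plus CHIR (open), ordered by role and then by ratio, with array names in parentheses where RefSeq uses another. The open points run from 243 to 3789, and the dotted line marks the LIF limit of 500, under which 24 members lay with CHIR.

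Relatives of these factors differed. Hes1, a Notch-responsive repressor, was higher with CHIR, at 694 against 416 in LIF, while Hes6 was lower. Among Rhox genes, 3 of 15 rows were detected, and the third, Rhox5, had 5147 and 4025, which was 1.28-fold lower. Of the Sall genes, Sall4 had 6521 and 5980.0, Sall2 179 and 139.9, and Sall3 was higher with CHIR, at 404 against 270.0. Grhl1 had 163 and 138 and Grhl3 207 and 159, both lower by less than 1.5-fold. The rule set the direction of the members Rhox6, Rhox9, Grhl2, Hes6 and Sall1. Among their detected relatives, Rhox5, Grhl1, Grhl3, Sall2 and Sall4 were lower with CHIR, and Hes1 and Sall3 were higher. These families were chosen after the members were known.

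Among list counts for these factors, 2 of the 8 bright rows of germline-associated genes were members (Rhox6 and Rhox9), where 1.53% of all bright rows were lower, and the list median was -0.16. Of the 6 bright rows of formative and post-implantation epiblast genes, Grhl2 was the only member, because Otx2 and Pou3f1 are left out by the rule. That list's median, with Grhl2, Otx2 and Pou3f1 counted in, was -0.62. In it, 5 of the 6 rows were below 0, against 2316 of all 4435 bright rows. The list was written with these results known. Hes6 was the single bright row of 18 Notch pathway genes and 1 of 5 bright rows of neural lineage genes, whose median was -0.05. All list counts and medians take only rows bright in LIF. Rows that were bright only with CHIR are therefore missing from them, in every list.

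Intracellular signaling proteins and ligands were 9 members, with a median ratio of 1.82. Pde1b, a calmodulin-dependent phosphodiesterase that breaks down cAMP and cGMP, had 689 in LIF and 283 with CHIR, 2.43-fold lower. Ppp1r1a, the inhibitor of protein phosphatase 1 that is switched on by the cAMP-dependent kinase, had 1753 and 794, 2.21-fold lower. The 2 genes are neighbors on chromosome 15 with 0 arrayed genes between them. Nckap1l, the detected gene on one side, was not lower, with 263 and 304. The other Pde1 genes, Pde1a and Pde1c, were not detected, and Ppp1r1b had signals under 40 on both arrays.

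The read-through gene Tnfsfm13 (Tnfsf12-tnfsf13), which joins the cytokine genes TWEAK and APRIL, had 646 and 309.6, 2.09-fold lower. It shares sequence with both, so that its signal cannot be given to one of them, and the row named Tnfsf12 was not detected. S1pr2 (Edg5), a sphingosine 1-phosphate receptor, had 2953 and 1858, 1.59-fold lower, and Fgd1, an exchange factor for Cdc42, had 2111 and 1387, 1.52-fold lower. The others were the adaptor Dok2, the focal adhesion scaffold Bcar1 (p130Cas), the phospholipase Plcd1 and the GTPase-activating protein Arhgap32 (Grit), at 1.54-fold to 1.88-fold. S1pr2 was the only clearly bright sphingosine or lysophosphatidic acid receptor row of 7, since the second detected one, Edg2, had 46.3 and 39.8.

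In metabolism, 5 members had a median ratio of 1.86. Slc27a2, which takes up and activates very long-chain fatty acids, had 793 and 355, 2.23-fold lower. Liph, which makes lysophosphatidic acid, had 1532 and 771, 1.99-fold lower. Urah (1190003J15Rik), an enzyme of urate breakdown, was the brightest member with 7043 and 3789, 1.86-fold lower. Pla2g10, a secreted phospholipase A2, and Dhrs7, a short-chain dehydrogenase, were 1.82-fold and 1.64-fold lower. The brightest relative of Pla2g10, Pla2g1b, was not lower, with 11131 in LIF and 13054 with CHIR.

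Of 3 channels and transporters, Kcnk1, a potassium leak channel, had 979.9 and 496, 1.98-fold lower. Slc38a2, a carrier of neutral amino acids, had 3124 and 1967, 1.59-fold lower, and Slc40a1, the iron exporter ferroportin, was 1.66-fold lower. Slc38a2 was 1 of 18 bright rows of an amino acid, one-carbon and ATF4 list with a median of 0.04. Above 0 were 10 of the 18, against 2119 of all 4435 bright rows. Slc38a5, a relative of Slc38a2, was higher with CHIR, at 664 against 574.

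The oocyte and stem cell genes were Khdc3, Eras and D1Pas1. Khdc3 (2410004A20Rik), a subunit of the maternal complex of the oocyte and early embryo, had 764 and 337, 2.27-fold lower. Eras, the Ras protein of mESCs, had 1979.98 and 1214, 1.63-fold lower. D1Pas1, a helicase of the Ddx3 family with close paralogs that may share probe sequence, was 1.68-fold lower. The Ras relatives of Eras, Hras1, Nras and Rras, were within 1.5-fold, with Nras higher at 3936 against 3350.

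Other genes known for mESC expression were mostly within 1.5-fold. Dppa3, Dppa4 and Dppa5 were each within 1.04-fold, Zfp42 had 1886 and 1993, and Nanog was higher with CHIR, at 2429 against 1660.2. Of those lower with CHIR, Utf1 was the nearest to the limit, with 5585 and 3972, 1.41-fold lower. Nanog was nearer to 1.5-fold in the other direction, with a log2 ratio of 0.55 against -0.49 for Utf1. The list medians of naive and core pluripotency genes were 0.16 over 17 bright rows and -0.15 over 10. Of the core list, 9 of 10 rows were below 0, against 2316 of all 4435 bright rows. Among the 9 was Fgf4, left out by name, which was past the limit. The naive list had 0 rows past it in this direction and 2 past it higher.

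In the group of cell cycle, DNA damage and cell death, Ccno, a cyclin-like protein needed in multiciliated cells, had 636 and 258, 2.46-fold lower. Bcl2l11 (Bim), a pro-apoptotic BH3 protein, had 575 and 318, 1.81-fold lower, and was 1 of 8 bright rows of an apoptosis list with a median of -0.12. Plk3, a stress-responsive polo-like kinase, had 2049 and 1362, 1.504-fold lower, whereas Plk1 had 7515 and 7602. Stk17b, a death-associated kinase, was just inside the brightness limit with 500.02 and 325. Trp53bp1, a scaffold of DNA break repair, was 1.61-fold lower. Cdkn1a (p21), the p53 target related to Cdkn1c, was higher with CHIR, at 1161 against 709.7 in LIF.

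**Figure D4:**
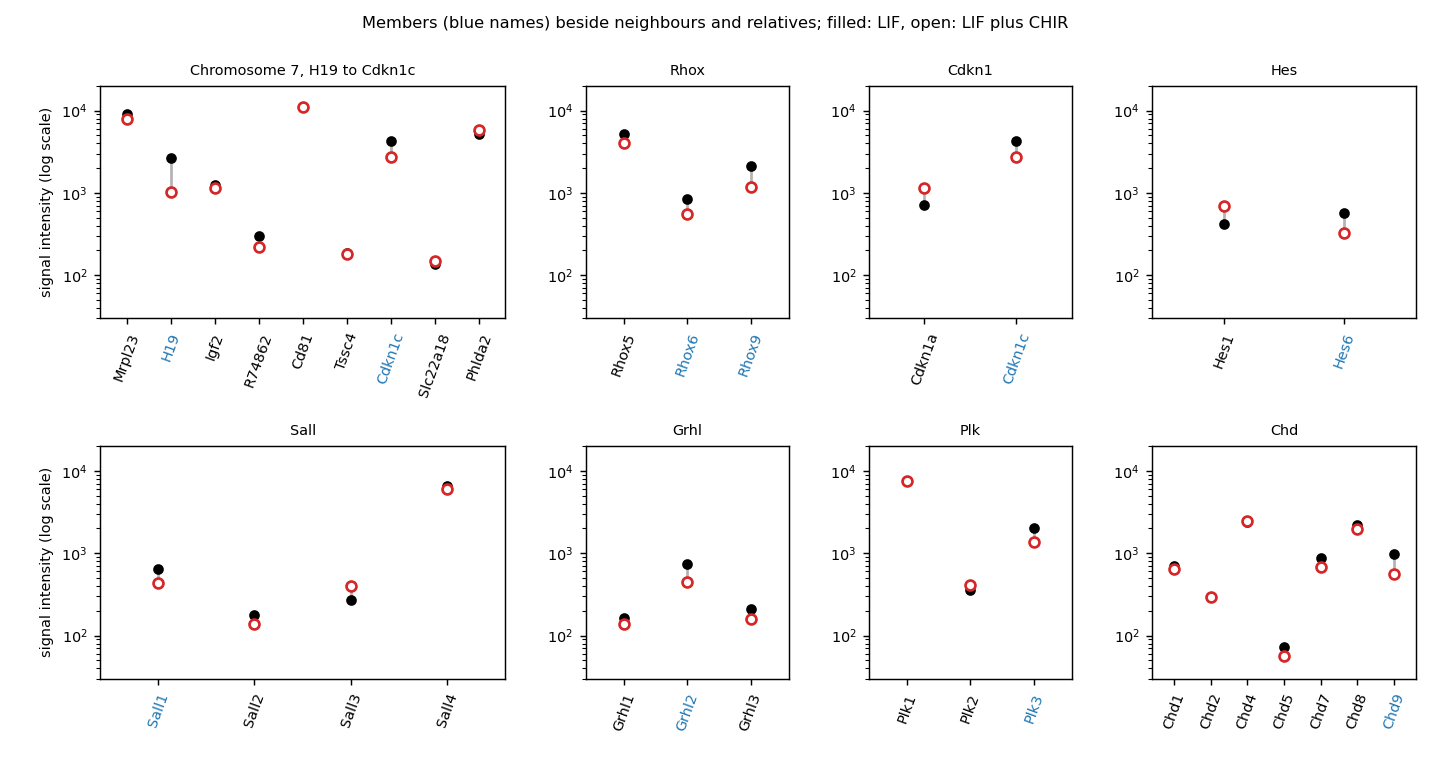
Signal intensity (log scale) in LIF (filled) and LIF plus CHIR (open) of members (blue names) beside detected genes around H19 and Cdkn1c and detected relatives in 7 families. Open points lie above filled ones for Cdkn1a, Hes1, Sall3 and some others, and below them for the members in the same panels.

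The cell surface, matrix, cytoskeleton and trafficking group had 13 members, at 1.53-fold to 1.95-fold. Prnp, the prion protein, had 1200.4 and 628, 1.91-fold lower, and Twf2, an actin-binding twinfilin, had 3433 and 2177, 1.58-fold lower. Itga3, an integrin subunit for laminins, had 853 and 521, 1.64-fold lower, and was 1 of 9 bright rows of an adhesion and keratin list with a median of -0.06. Podxl, a sialomucin, had 514 and 315 and the clathrin light chain Cltb had 546 and 327, both close to the brightness limit. The others were Cemip2, the axon guidance protein Crmp1, the recycling GTPase Rab25, the metallopeptidase Mmp11, the slit diaphragm protein nephrin (Nphs1), the trypsin inhibitor Spink3, the centrosomal protein Ninl (4930519N13Rik) and the keratin Krt17.

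Krt17 had 1798 and 1173, 1.53-fold lower, and was the only member among 55 keratin rows, of which 9 were detected on at least 1 array. Of these 9, 7 had a lower signal with CHIR, including Krt17, whose direction the rule set, and 2 a higher one. Krt14, too dim to be a member, had 96.7 in LIF and 43.2 with CHIR, 2.05-fold lower with the latter raised to 47.1. Krt42 had 5302 and 4270.0, and Krt8 had 414 and 371. Krt10 was higher, at 573 against 470.1, and Krt23 was listed at 10.6 in LIF, where it was not detected, and at 512 with CHIR.

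The last 10 members were Rnf213, a large ubiquitin ligase, Zswim6 and 8 clones or predicted genes. The clone 4933421H10Rik had 619 and 243, 2.55-fold lower, and AI850995 had 998 and 511, 1.95-fold lower. The rest of the 8 were 9930031P18Rik, BC004728, 5530401J07Rik, C130085G02Rik, LOC100041569 and LOC385492, the last annotated as similar to a protein of sequence family 48, so that its probe may also match that gene. For 3 clones another row lists the clone name as a synonym. Cgnl1, which lists 4933421H10Rik, and Gfod1, which lists AI850995, were not detected on either array. Dusp27, which lists C130085G02Rik, was lower by 1.35-fold, with 786 and 583. Of the 50 members with an Entrez gene number, 0 had a second row with the same number, and the other 14 could not be looked up in this way. Rows named by a synonym of a member were not detected on either array, namely Tcfcp2l3 for Grhl2, with -14.9 and -13.8, 5730564L20Rik for Dhrs7, with 21.4 and 6.85, Gcap4 for Peg3, with -10.6 and -8.74, and Slc39a1 for Slc40a1, with 7.60 and 5.54. These undetected rows gave no second measurement of a difference. Some detected rows list the name of a member as a synonym but do not carry its Entrez number. They cannot be read as second measurements of that member. Mapbpip, for Rab25, had 141 in LIF and 86.1 with CHIR. Nckap1, for H19, had 931 and 1011, and Aggf1, for Peg3, had 877 and 913.

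Ratios just inside and just outside the 1.5-fold limit were alike. Inside 1.5-fold were Rhox6, Plk3 and Sall1, and outside it were Serping1 and Tcfl5, each at 1.49-fold. Just under a LIF signal of 500 were 4921530G04Rik (Tex19.2), with 469 and 261, Phf19, a Polycomb-associated protein, with 468.5 and 138, and Ms4a10, with 461 and 261. Phf19 was 3.38-fold lower, more than any member, and Tex19.2 and Ms4a10 were 1.80-fold and 1.77-fold lower. The members nearest above 500, Stk17b, Podxl and Cltb, had smaller ratios, at 1.54, 1.63 and 1.67.

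The file placed 50 of the 64 members on a chromosome, and 1.54% of the 3514 placed bright rows were past the limits, the left-out genes included. On chromosome X, 4 of 99 bright rows, or 4.04%, were members (Rhox6, Rhox9, Eras and Fgd1). On chromosome 1, 5 of 157, or 3.18%, were members, and on chromosome 15, 4 of 135, or 2.96%. Chromosomes 17 and 18 had 0 of 213 and 0 of 74. The gene ontology words of the file gave signal transduction to 8 members, 12.5% against 3.02% of bright rows, cell adhesion to 4, 6.25% against 1.26%, and transcription to 10, 15.6% against 8.43%. Words for the nucleus were as frequent in members as in bright rows, at 18.8% each, and words for mitochondria were given to 2 members, 3.12% against 6.56%. Rows annotated from the MEEBO oligo set made up 12 members or 18.8%, against 10.4% of bright rows. These shares are descriptions with no test.

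Most lists held no member. Of the 33 gene lists, 25 had 0 members among their bright rows, including Wnt pathway, FGF-ERK, cell cycle, histone, ribosomal protein and respiratory chain genes. The Wnt list had 7 bright rows and the FGF-ERK list 13. Because only 1.53% of all bright rows were past the limits, a count of 0 in lists of these sizes says little about them. Fgf4 in the FGF-ERK list and Gadd45g in the p53 list were past the limits and are left out by name. In all, 10 of the 64 members (15.6%) and 315 of the 4435 bright rows (7.10%) were in at least 1 list, so that 54 members were in none. The 3 largest lists without a member had medians near that of all bright rows, with -0.06 over 30 histone rows, -0.02 over 28 cell cycle rows and -0.02 over 23 ribosomal protein rows.

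**Figure D5:**
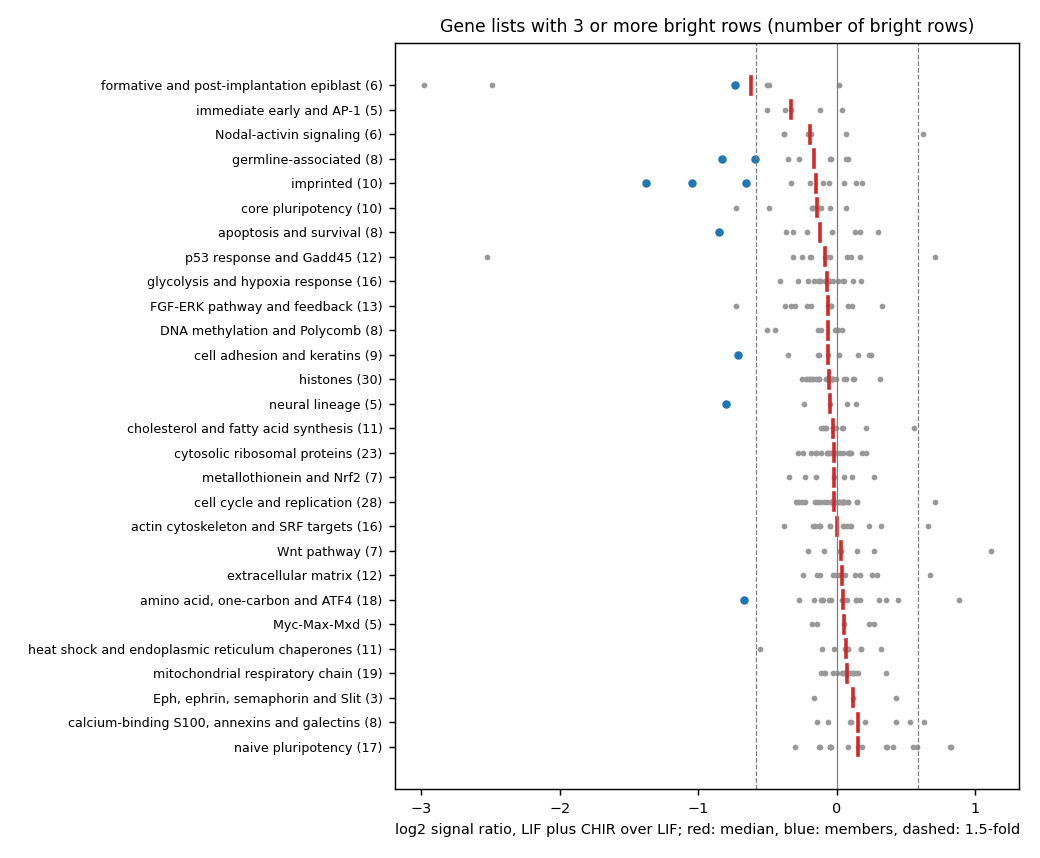
Log2 ratio of LIF plus CHIR to LIF (horizontal) for each bright row of the 28 lists with 3 or more bright rows, with members in blue, list medians as red bars and 1.5-fold as dashed lines. The epiblast list has the lowest median, at -0.62, with the member Grhl2 and the left-out Otx2 and Pou3f1 counted in. Most lists have medians near 0 and no blue point.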

How the data were processed

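The authors deposited a background-subtracted signal intensity, on a linear scale, and a detection p-value for each row and array, and a shorter table with the same values. The software and the normalization are not given in the sources used here. Both were used as deposited; 0 columns of sample values were left unused. A row was treated as measured by 1 probe where its detection p-values were multiples of 1 over 936, the apparent number of negative controls. Members and gene lists were chosen with earlier results of these data known, and role groups and families after values were seen. The text names each member once, with signals for the 15 largest ratios, the 10 brightest, list members and rows near a limit, except some items that are not reported here. Ratios and counts came from pandas 2.3.3 and numpy 2.4.6 under Python 3.11.15, were plotted with matplotlib 3.10.9, and were tested on simulated data. Names, gene order and promoters came from RefSeq (GRCm38.p6), which named 47 members and renamed 8. Alternatives were quantile normalization, scaling, normexp correction (limma 3.58.1, R 4.3.3), and other signal, detection, fold and counting limits. A member or list value counted as moved if it changed by over 1.5 times.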

Additional observations from a re-analysis of the deposited data

How the results depend on the processing

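The count of 64 lower rows remained between 43 and 89 under the alternatives of normalization, background, table, minimum signal and detection, a LIF limit of 300, the mean of both arrays and counting by gene. It was 31 with a LIF signal of at least 1000, 9 at 2-fold and 172 at 1.3-fold. Quantile normalization gave 65 rows, all members and Serping1. Normexp correction fitted on all rows kept 24 members among 43 rows, with a fitted background SD of 588 in LIF. Fitted on rows with 1 probe, where that SD was 15.4, it kept 60, losing LOC547380, Plk3, Rhox6 and Sall1. Asking for a mean signal of 500 lost 16 members. In these fits all members stayed below 0, and 9 values, all under normexp on all rows, moved by over 1.5 times. No list median moved by more than 0.16. No paired analysis was possible because there was a single array of each kind, and for the same reason no array could be left out. The number of arrays limits the precision.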
